A study of Homo sapiens with 12 samples.

Results

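Neighbouring genes can be transcribed away from each other from starts that lie close together, and the stretch of DNA between such starts is called a bidirectional promoter. ATAC-seq uses a transposase that cuts and tags open chromatin. A summit is a position in an accessible interval where fragments reach a local maximum, and an interval can hold more than 1. The summits described here lay within 1000 bp of an end (start or finish) of 2 or more different protein-coding genes of the RefSeq annotation of GRCh38.p14. Members were chosen by position, on chromosomes 1 to 22 and in intervals of at most 10000 bp, from a list of called peaks, whose lowest −log10 q among the summits within those limits was 1.301. The strength of a summit above that limit did not enter the choice. They numbered 2156 of the 105599 summits that met the limits on chromosome and interval length, and of the 188019 lines in the list. They made up 15.2% (95% exact binomial interval 14.6 to 15.8) of the 14228 summits near any coding gene end. The other 12072 lay near an end of exactly 1 coding gene.

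The cells were HT1080, an established human fibrosarcoma line, kept for 48 h in gels of type I collagen from rat tail. The gels held 0.3, 1 or 1.7 mg/mL (low, medium and high concentration), with 4 libraries each. All 3 groups also received 20 µM GM6001, a broad inhibitor of matrix metalloproteinases, and no group without it was used here. The deposited list pools the series, so no value below compares concentrations, no value has replicates, and the depth per library is unknown. No test was run: summits of 1 pooled list are not replicates, and intervals given for shares cover counting error only.

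Many housekeeping genes are known to be arranged head to head, among them genes for DNA repair, mitochondrial proteins and chaperones. Promoters of this kind typically lie in CpG-rich DNA, often lack a TATA box, and carry sites for factors such as the ETS family, NRF1, NF-Y (which binds CCAAT) and YY1. Replication-dependent H2A and H2B histone genes and the collagen IV chain genes are textbook examples of genes paired in this way.

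The sequences below show the DNA between the starts of selected pairs. Each line gives the bases strictly between the opposite starts, on the + strand from 5′ to 3′, from the RefSeq promoter table (GRCh38.p14), with the gene on the minus strand named before that on the + strand. Capitals mark a match, on either strand, to 1 of 10 motifs. Promoter elements were the GC box GGGCGG, the box that NF-Y binds, spelled CCAAT, and the TATA box, searched as TATAAA. Factor motifs were CCGGAAGT for the ETS family, GCATGCGC for NRF1, ACTACAATT for ZNF143, AGATGGCGG for YY1, TCTCGCGA for BANP, TGACGTCA for the CRE and, for AP-1, the letters TGAGTCA. The 10 motifs were counted independently, so overlapping matches count for each. A match describes letters and is not evidence of binding.

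Shown first are the strongest shared summits among pairs with at least 40 and under 250 bases between the starts and whose genes have symbols other than LOC numbers. LMBRD2/SKP2 spans chr5:36151888-36152110, IQCB1/EAF2 chr3:121835061-121835208, FAM227B/DTWD1 chr15:49620819-49621047 and C19orf47/PLD3 chr19:40348528-40348694.
LMBRD2/SKP2: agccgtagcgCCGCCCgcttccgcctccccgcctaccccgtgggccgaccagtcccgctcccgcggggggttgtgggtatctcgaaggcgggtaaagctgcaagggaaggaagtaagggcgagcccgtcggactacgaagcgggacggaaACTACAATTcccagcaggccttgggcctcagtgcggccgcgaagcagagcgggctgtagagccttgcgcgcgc
IQCB1/EAF2: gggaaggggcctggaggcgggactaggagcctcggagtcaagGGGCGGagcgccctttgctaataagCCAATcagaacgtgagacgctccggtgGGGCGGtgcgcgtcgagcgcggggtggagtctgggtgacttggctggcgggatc
FAM227B/DTWD1: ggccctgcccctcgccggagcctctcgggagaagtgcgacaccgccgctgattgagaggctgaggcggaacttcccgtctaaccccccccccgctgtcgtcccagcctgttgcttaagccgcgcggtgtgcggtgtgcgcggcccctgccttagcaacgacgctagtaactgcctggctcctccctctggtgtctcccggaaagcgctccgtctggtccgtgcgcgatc
C19orf47/PLD3: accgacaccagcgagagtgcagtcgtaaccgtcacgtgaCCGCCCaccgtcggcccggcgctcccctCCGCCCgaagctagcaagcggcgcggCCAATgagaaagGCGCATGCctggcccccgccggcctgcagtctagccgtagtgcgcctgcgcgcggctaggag

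The next 6 are the textbook pairs with a shared summit and a distance in the same range, shown because their enrichments run from 7.53 to 17.6: SIRT3/PSMD13 at chr11:236932-236975, COL4A1/COL4A2 at chr13:110307158-110307283, TK1/AFMID at chr17:78187205-78187361, SARS2/MRPS12 at chr19:38930764-38930943, HSPD1/HSPE1 at chr2:197500275-197500378 and CHEK2/HSCB at chr22:28741835-28742031.
SIRT3/PSMD13: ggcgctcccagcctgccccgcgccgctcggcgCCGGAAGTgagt
COL4A1/COL4A2: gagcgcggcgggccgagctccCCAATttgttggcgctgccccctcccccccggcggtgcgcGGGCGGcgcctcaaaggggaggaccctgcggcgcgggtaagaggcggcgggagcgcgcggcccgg
TK1/AFMID: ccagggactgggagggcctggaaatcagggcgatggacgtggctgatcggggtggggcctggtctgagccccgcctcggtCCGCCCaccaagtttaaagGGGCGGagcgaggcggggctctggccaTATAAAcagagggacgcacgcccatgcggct
SARS2/MRPS12: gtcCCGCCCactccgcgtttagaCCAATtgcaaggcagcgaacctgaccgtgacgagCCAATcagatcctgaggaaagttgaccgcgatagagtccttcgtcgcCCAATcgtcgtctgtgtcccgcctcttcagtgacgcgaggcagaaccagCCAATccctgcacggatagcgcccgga
HSPD1/HSPE1: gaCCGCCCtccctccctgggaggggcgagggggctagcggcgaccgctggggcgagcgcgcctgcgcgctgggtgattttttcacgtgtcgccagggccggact
CHEK2/HSCB: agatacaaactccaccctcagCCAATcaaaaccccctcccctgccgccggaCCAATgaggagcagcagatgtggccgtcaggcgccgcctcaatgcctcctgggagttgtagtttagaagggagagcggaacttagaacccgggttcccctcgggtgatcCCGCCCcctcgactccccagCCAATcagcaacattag

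The last sequences give a contrast: COL4A4/COL4A3 at chr2:227164489-227164623, which had no summit, and H2AC15/H2BC15 at chr6:27838376-27838568, the strongest histone pair.
COL4A4/COL4A3: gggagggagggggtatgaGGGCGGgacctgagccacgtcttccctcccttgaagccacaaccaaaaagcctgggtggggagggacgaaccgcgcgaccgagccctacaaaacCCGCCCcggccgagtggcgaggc
H2AC15/H2BC15: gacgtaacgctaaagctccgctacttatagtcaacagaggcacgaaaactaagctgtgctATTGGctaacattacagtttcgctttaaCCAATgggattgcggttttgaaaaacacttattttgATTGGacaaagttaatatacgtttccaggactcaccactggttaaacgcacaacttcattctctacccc

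The strongest summit lay outside the printed bases for SIRT3/PSMD13 (99 bp from the SIRT3 start, inside that gene), for SARS2/MRPS12 (16 bp inside SARS2) and for HSPD1/HSPE1 (206 bp inside HSPD1). In the other pairs with a summit it lay within them. The C+G content of these 12 stretches ranged from 40.9% in the histone pair to 80.2% between COL4A1 and COL4A2. CCAAT was found 4 times between SARS2 and MRPS12, 3 times between CHEK2 and HSCB and 3 times between the histone genes. The ZNF143 letters stood between LMBRD2 and SKP2 and in no other of the 12. FAM227B/DTWD1 held none of the 10 motifs between its starts, although its summit was among the strongest.

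Strength is given by the authors' enrichment, the fold of fragments at the summit over the local background, and by the pileup, the number of overlapping fragments recovered from the enrichment and its p-value. Shared summits were stronger than summits near 1 coding gene on both measures. The median enrichment was 11.4 (quartiles 5.90 and 14.6) at shared summits and 8.55 (3.28 and 13.6) near exactly 1 gene, a difference of 2.88. The difference was 1.46 with only the strongest summit of each gene set and 1.56 with summits at a −log10 q of at least 10. The median pileup was 898 fragments (368 and 1623) against 450 (121 and 1066), a ratio of 2.00. Summits with an enrichment of at least 10 made up 58.4% of the shared and 43.9% of the others, and those with an enrichment under 3 made up 13.4% and 23.0%. Shared summits lay over a higher local background (median 82.1 against 51.5 fragments), which lowers the enrichment for a given pileup. Their intervals had a median length of 1010 bp against 877 bp, and 73.8% of shared summits were the only summit of their interval against 71.4%. The order of the medians held on 22 of 22 chromosomes for both measures.

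Strength differed widely with the arrangement of the genes. Strand was taken from the RefSeq promoter table, which gave it for 15100 of 19122 autosomal coding genes (79.0%). Of the 2156 shared summits, 1028 (47.7%) lay at the starts of a pair of genes on opposite strands (head-to-head), 315 (14.6%) at a start beside a finish, 79 (3.66%) at a finish beside a finish and 10 (0.464%) at same-strand starts. Another 186 (8.63%) involved a read-through gene or a gene inside another, 27 (1.25%) had 3 or more genes in other arrangements, and 511 (23.7%) had at least 1 gene without a strand. Where both strands were known and only 2 separate genes were near, head-to-head starts made up 71.8% (69.4 to 74.1) of 1432 summits.

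Head-to-head summits had the highest median enrichment of these classes, 13.2 (quartiles 9.71 and 15.4), with a median pileup of 1182. Only 44 of them (4.28%) were under an enrichment of 3. A start beside a finish gave 9.32 (4.22 and 12.5) with a pileup of 713. Read-through or nested loci gave 11.4 (5.13 and 14.4) with 708. Where only gene finishes met, the median was 2.49 (1.76 and 3.96) with a pileup of 104, and 62.0% of these summits were under 3. For comparison, summits near 1 coding gene had a median of 10.6 (4.45 and 14.4) and a pileup of 621 at a start, and 2.91 (1.85 and 5.51) and 103 at a finish. The finish-beside-finish summits thus resembled those at the finish of 1 gene more than the other shared summits, and head-to-head summits stood above those at 1 start by 2.59. With only the strongest summit of each pair or gene the medians were closer, 13.53 against 11.85, with pileups of 1238 and 736.

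**Figure D1:**
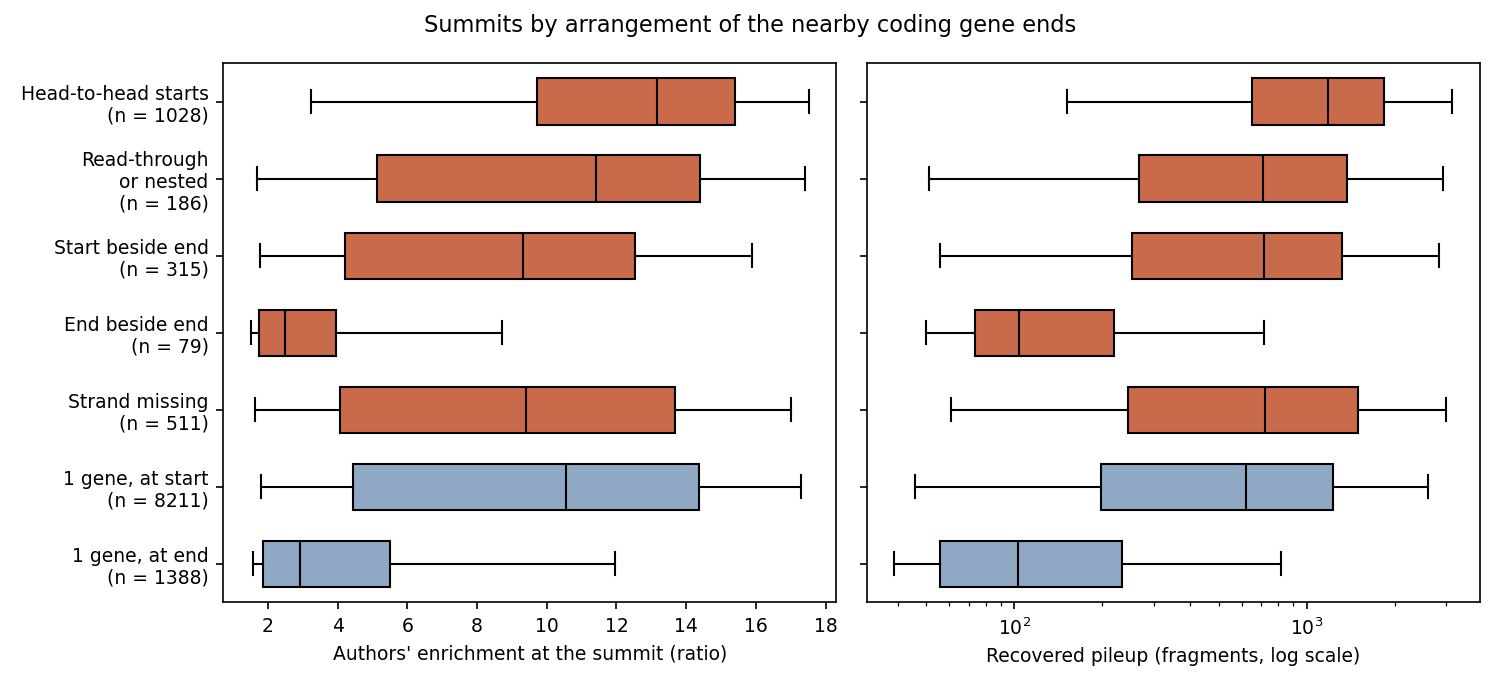
Authors' enrichment (left, ratio) and recovered pileup (right, fragments, log axis) of summits by the arrangement of the nearby gene ends; boxes give quartiles and medians, whiskers the 5th and 95th percentiles, red shared summits, blue summits near 1 gene. Head-to-head starts sit highest, with a median enrichment of 13.2, and summits where gene finishes meet sit lowest, at 2.49.

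Among the strongest head-to-head summits, CCHCR1/TCF19 stood first, with 21.2 for enrichment and 1454 for pileup (interval 31158139 to 31158771 on chromosome 6). LMBRD2/SKP2 followed with 19.7 and 1857 (interval 36151308 to 36152368 on chromosome 5). SKP2 is the F-box protein that directs the cyclin-dependent kinase inhibitor p27 to degradation. IQCB1/EAF2 reached 19.6 with 1659 fragments; IQCB1 is a ciliary protein and EAF2 a partner of the elongation factor ELL. FAM227B/DTWD1 had 19.5 and 2078, and C19orf47/PLD3, where PLD3 is a lysosomal protein of the phospholipase D family, had 19.1 and 2114. TCTN3/ENTPD1 joined a gene of the ciliary transition zone to the ectonucleotidase CD39, with 18.7 and 2288.

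TMEM167A/XRCC4 reached 18.7 with 1201 fragments. XRCC4 is a core factor of non-homologous end joining. The uncharacterised pair LOC102724594/LOC102724652 on chromosome 21 also had 18.7, but with a pileup of 643 over a background of 33.4 fragments. A listed promoter of LOC102724652 is letter for letter one of CRYAA on the same chromosome, so a read from within that stretch could come from either copy. Whether that stretch is the one at this summit was not checked. The weakest strongest-summits of a head-to-head pair were 1.57 at GPR152/CABP4 (pileup 44) and 1.43 at GPBP1L1/TMEM69, where 256 fragments stood over a background of 178.9.

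CYCS/SPMIP4 led the starts beside a finish, with 18.6 and a pileup of 3355; CYCS encodes cytochrome c and its start lay 187 bp from the summit, while the finish of SPMIP4 lay 325 bp from it. ALKBH6/CLIP3 had 18.4 and ATP5F1E/PRELID3B 17.4, ATP5F1E being the epsilon subunit of the mitochondrial ATP synthase. In all 3 the start was the nearer end. Same-strand starts were led by MYL6B/LOC124902942 (14.4), C20orf141/TMEM239 (11.98) and FZD8/LOC124902528 (11.1). Where finishes met, PLEKHH3/TUBG2 had 12.7, POLDIP2/TNFAIP1 10.5 and RHCE/TMEM50A 10.4. Read-through or nested loci were led by ASNSD1/ASDURF (18.99), by CFAP210 with PHOSPHO2 and its read-through PHOSPHO2-KLHL23 (18.5), and by DNAJC25 with DNAJC25-GNG10 (18.5). ASNSD1 and ASDURF share 1 annotated start, as do DNAJC25 and its read-through gene, so at those loci the summit is shared by annotation. At the PHOSPHO2 locus the start of CFAP210 lies on the opposite strand, 82 bp from the summit.

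The distance between opposite starts was examined next. The 930 head-to-head gene pairs had a median distance of 121 bases between their starts, and 837 of them had 1 shared summit while 93 had more. The summit lay between the starts, those included, at 625 of the 1028 summits (60.8%), with medians of 13.7 and 1303 fragments, against 12.1 and 997 outside them. The strongest summit of a pair lay a median of 63.5 bp from the middle of the starts. Seen from each start, it lay a median of 73 bp upstream, and upstream in 72.3% of 1860 starts. The strongest summit of a gene that alone was near it lay a median of 40 bp upstream, and upstream in 63.5% of 6986 starts. A summit between diverging starts is upstream of both by geometry.

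**Figure D2:**
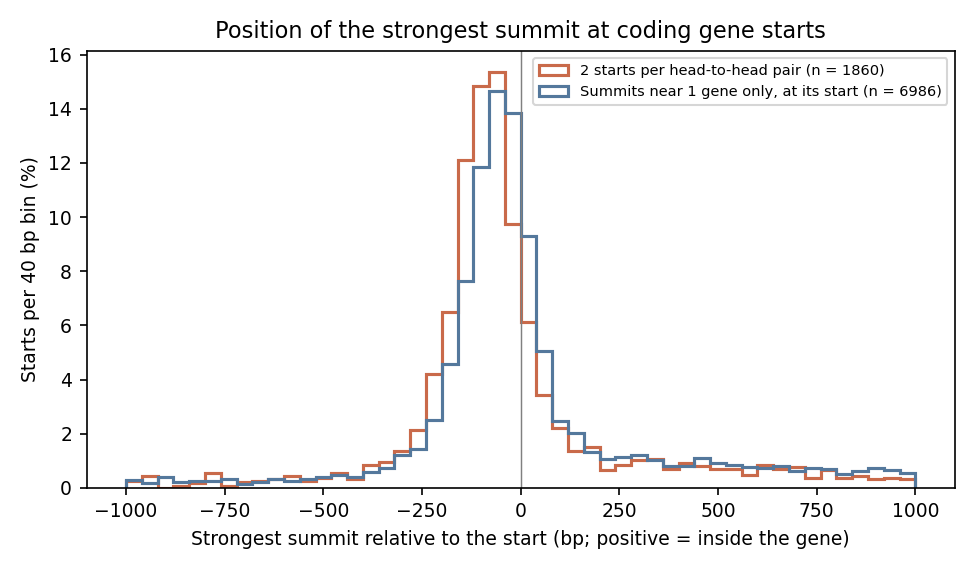
Position of the strongest summit relative to coding gene starts (bp, negative outside the gene) as a share of starts per 40 bp bin, for the 2 starts of each of 930 head-to-head pairs (red) and for genes that alone were near their summit (blue). Both distributions peak just upstream of the start, with medians 73 bp and 40 bp upstream.

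The annotation, in place of the summits, gave 1048 pairs of coding genes on opposite strands with starts at most 1000 bp apart (read-through genes left out). A summit within 1000 bp of both starts was present at 967 of them (92.3%, 95% exact binomial interval 90.5 to 93.8). Among 11350 starts with no other coding gene end within 2000 bp, 6605 (58.2%, 57.3 to 59.1) had a summit within 1000 bp, although the window around 1 start is wider than the window common to a pair. The share was 94.6% for 778 pairs whose starts diverged and 85.6% for 270 whose starts overlapped. By distance it stayed between 92.5% at 0 to 99 bases and 97.3% at 300 to 499 bases.

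The strongest summit of a pair varied more with that distance. Its median enrichment was 12.6 (quartiles 10.04 and 14.7) at 0 to 99 bases, 14.4 at 100 to 199, 15.0 (12.2 and 16.7) at 200 to 299, 13.9 at 300 to 499 and 12.8 at 500 to 999. Median pileup was 815 fragments at 0 to 99 bases, 1214 at 100 to 199, 1652 at 200 to 299, 1748 at 300 to 499 and 1431 at 500 to 999. Pileup was thus highest where the starts lay 200 to 499 bases apart, and lowest where they nearly met. More than 1 summit was shared by 21.1% of the 57 pairs at 500 to 999 bases, and by 5.5% of the 109 pairs at 300 to 499 bases.

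**Figure D3:**
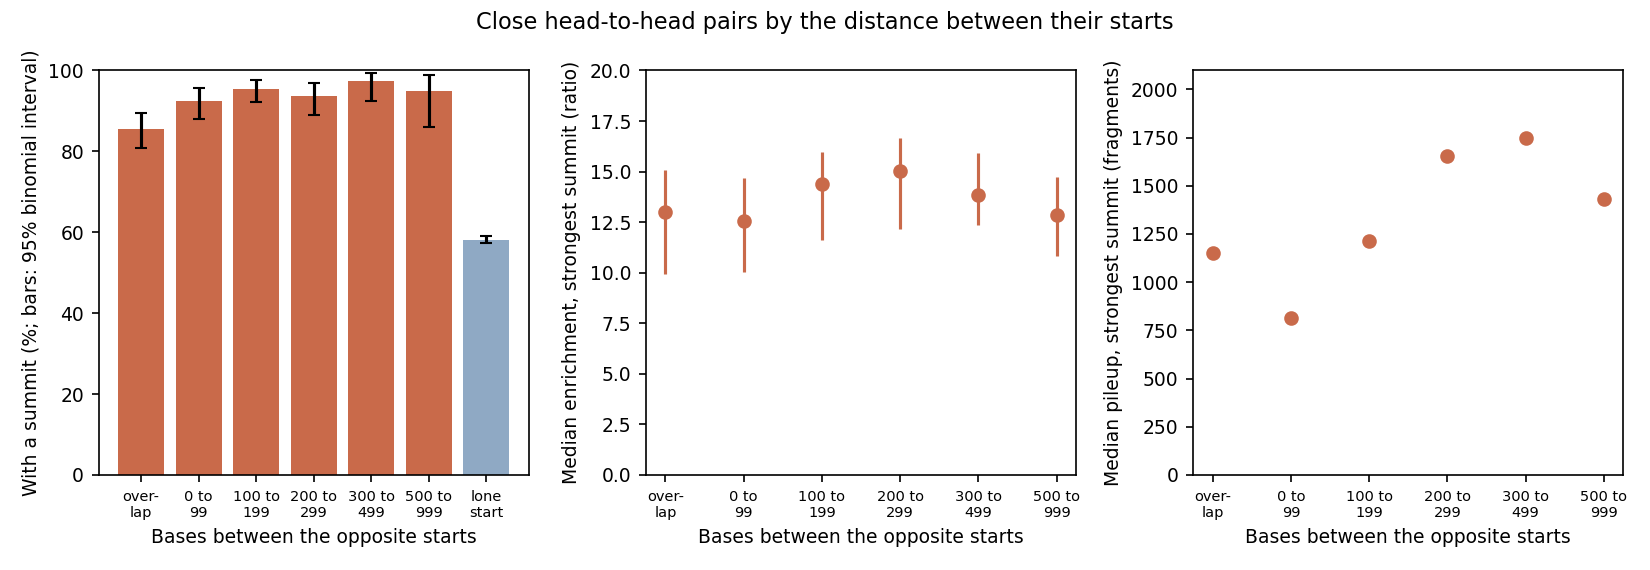
Close head-to-head pairs by the number of bases between their starts: share with a shared summit (left, with lone starts in blue and 95% binomial intervals), median enrichment of the strongest summit with its quartiles (middle) and its median pileup (right). Shares are high in each distance class, and the median pileup is 815 at 0 to 99 bases and 1748 at 300 to 499.

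A noncoding partner was compared in the same way. Of the lone coding starts, 1487 had the start of a long noncoding RNA gene on the other strand within 1000 bp, and 83.0% (81.0 to 84.9) of these had a summit. At their strongest summits the medians were 13.2 for enrichment and 979.5 fragments. The 9863 lone starts without such a partner had a summit in 54.5% (53.5 to 55.4), with medians of 11.5 and 674. Strand was listed for 11145 of 17795 long noncoding RNA genes, so some of these starts may have a partner that was not counted. Starts in close coding pairs had one in 93.2% (92.0 to 94.2) of 2080, with medians of 13.5 and 1234. Coding starts with a noncoding partner thus lay between the other sets in share and in pileup.

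Base composition moved with these shares. A promoter (250 bases before to 50 after the start) was called CpG-rich here at a C+G content of at least 55% and an observed-to-expected CpG ratio of at least 0.6. Of promoters in head-to-head pairs with a shared summit, 84.2% of 1702 were CpG-rich, compared with 77.4% of 5964 lone starts with a summit and 24.9% of 3931 lone starts without one. Within CpG-rich promoters, 96.2% (95.1 to 97.1) of 1504 close head-to-head starts and 82.5% (81.5 to 83.5) of 5597 lone starts had a summit. In the other promoters it was 82.1% (77.6 to 86.1) of 330 against 31.3% (29.9 to 32.7) of 4298. The share was thus higher at head-to-head starts in both classes, with each start classed by its own promoter alone. The partner's promoter was not held fixed, and a summit at the partner's start could count for both genes. Of pairs with a shared summit and both promoters listed, 132 had exactly 1 CpG-rich promoter and 51 had none. The part of composition in the difference was not tested. Pairs with 2 CpG-rich promoters had a median enrichment of 14.1 and pileup of 1348 (574 pairs), and those with none 11.5 and 788 (51 pairs). Lone CpG-rich starts with a summit had 12.9 and 878.

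Motif letters were counted in CpG-rich promoters only, to hold composition closer. The ETS motif CCGGAAGT was in 17.1% of 1433 promoters of head-to-head pairs with a shared summit, in 8.03% of 4619 lone promoters with a summit and in 1.64% of 978 without one. With only the plus-strand gene of each pair counted, so that no stretch between starts entered from both sides, it was in 16.0% of 725. This count removes double counting only. Promoters reach 250 bases before the start, and head-to-head starts lay a median of 121 bases apart (upper quartile 236). Many head-to-head promoters therefore also held the partner's start, whereas lone starts had no other coding gene end nearby. The part of this in the motif shares was not tested. The share in all 7979 CpG-rich coding promoters was 9.27%. TATAAA went the other way, at 1.54% in head-to-head promoters, 3.77% in lone promoters with a summit and 6.95% in those without. The NRF1 core was in 8.37%, 6.41% and 1.74%, the YY1 motif in 5.09%, 3.25% and 0.409%, and CCAAT in 39.8%, 35.8% and 26.7%. The GC box was at 79.8%, 82.0% and 80.3%, so it hardly differed.

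**Figure D4:**
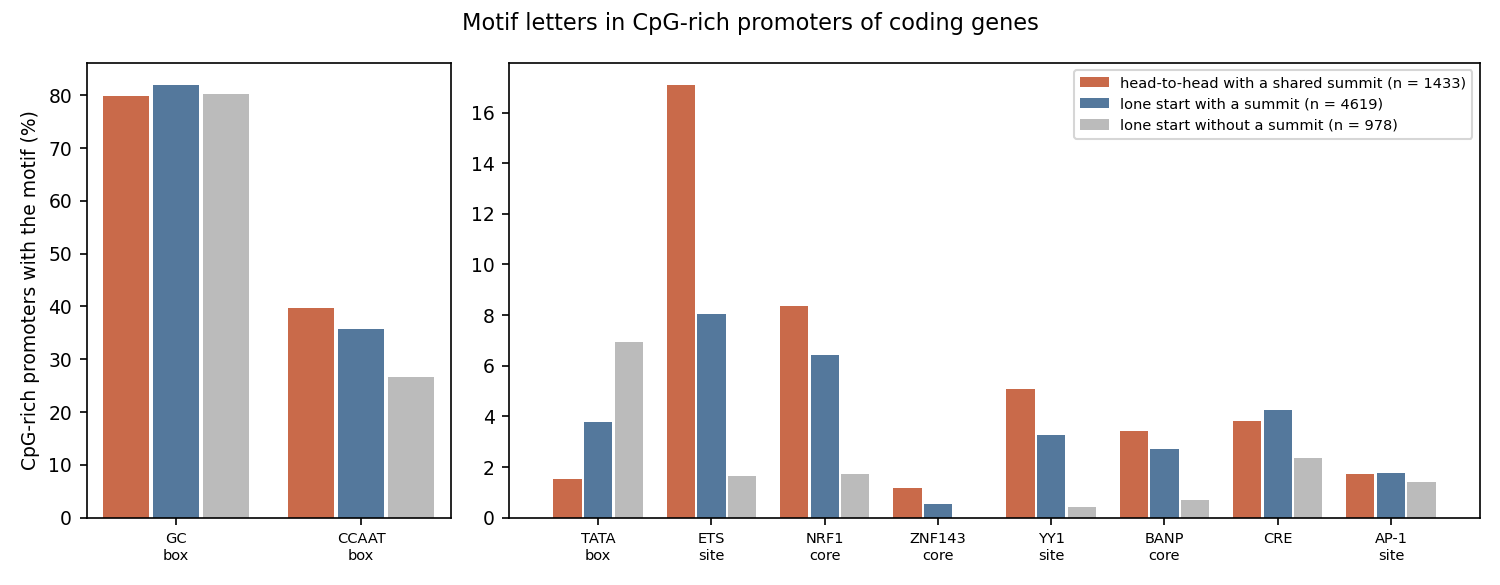
Share of CpG-rich coding promoters (300 bases) that hold the letters of each motif on either strand, for head-to-head pairs with a shared summit (red), lone starts with a summit (blue) and lone starts without one (grey); the panels have separate axes. The ETS site is in 17.1% of head-to-head promoters and 8.03% of lone promoters with a summit, and the TATA box in 1.54% and 3.77%.

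Median enrichment within the pairs differed little with most of these letters. Pairs with the GC box in either promoter had 13.8 and a pileup of 1342 (632 pairs), against 13.5 and 979 without it (125 pairs). Pairs with CCAAT in either promoter had a median enrichment of 14.4 and a pileup of 1515 (379 pairs), against 13.2 and 1032 without it (378 pairs). With the ETS motif the values were 14.0 and 1254 (152 pairs), against 13.7 and 1261 without it. At lone starts with a summit, CCAAT went with 13.4 and 963, against 11.4 and 662. The ETS motif there went with 13.8 and 889, against 11.9 and 725. The 12 pairs with the ZNF143 letters, LMBRD2/SKP2 among them, had 16.2 and 1879, against 13.6 and 1249. Strength here is over all promoters with a listed sequence, CpG-rich or not. The AP-1 motif, the site of the FOS and JUN factors, was present in 24 pairs with a median enrichment of 12.3 and pileup of 1322, against 13.8 and 1256 without it. At lone starts it went with 8.81 and 469, against 12.2 and 751. Of the 193 lone promoters with a summit and this motif, 82 were CpG-rich, against 77.4% of all lone starts with a summit. Lone starts with a summit had medians of 12.9 and 878 where CpG-rich and 8.38 and 347 elsewhere. The part of composition in the AP-1 values was not tested.

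Of the 20 textbook pairs looked up, 15 had a summit near ends of both genes. Of all close head-to-head pairs 92.3% had a shared summit, and of all autosomal coding genes 19.4%. The 20 include pairs whose outermost starts are not close. In ATM/NPAT the damage-sensing kinase faces the histone gene activator NPAT, at 17.1 with 3630 fragments (interval 108222441 to 108223398 on chromosome 11). TK1/AFMID, with the S-phase enzyme thymidine kinase 1, had 17.6 and 2541. MRPS12/SARS2, both of mitochondrial translation, had 15.6 and 2133. HSPD1/HSPE1, the mitochondrial chaperonin and its cochaperonin, had 15.3 with a pileup of 4593 over a background of 299.2. That summit lay 206 bp inside HSPD1 and is also near the read-through gene HSPE1-MOB4. CHEK2/HSCB had 13.1 and 1927, SERPINI1/PDCD10 13.1 and 2129, and BRCA2/ZAR1L 12.6 and 712. BCS1L/ZNF142 had 11.7, FEN1/TMEM258 10.5 and SIRT3/PSMD13 10.3. SURF1/SURF2 had 6.65.

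TAP1/PSMB9, genes of antigen processing, had an enrichment of 11.1 but a pileup of 236, over the lowest background in the list. This pair lies in the major histocompatibility complex on chromosome 6. Pileups of close pairs there ran from 101 at WDR46/PFDN6 to 1454 at CCHCR1/TCF19. The genome build also holds alternate copies of this region, so reads could be divided among them or dropped. The part of this in the values was not tested. COL4A1/COL4A2, the collagen IV chains of basement membranes, had 7.53 and a pileup of 360 (interval 110306601 to 110308192 on chromosome 13). COL4A3/COL4A4, the chains of the kidney glomerulus, had no summit at either gene. Pileups in the 15 pairs thus ran from 236 to 4593.

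The 4 remaining textbook pairs had no shared summit under the rule. For PPAT/PAICS, enzymes of purine synthesis, the outermost RefSeq ends lie far apart; with every start in the promoter table used, the pair shared 2 summits, the stronger at 11.6 with 2702 fragments. UNG and ALKBH2, whose outermost starts lie 4124 bases apart, had separate summits (2 and 1), the strongest of UNG at 11.7. TRMT2A/RANBP1 and MTRR/FASTKD3 each had summits near 1 of the genes only, at 14.2 near TRMT2A and 17.0 near FASTKD3. The promoter table held no start for TRMT2A, RANBP1 or MTRR.

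Gene groups were then counted against all autosomal coding genes, of which 66.3% had a summit near an end and 19.4% a shared one. Among 72 DNA repair genes, 69 (95.8%) had a summit and 35 (48.6%) a shared one. The strongest were XRCC4, TDG with UQCC6 (enrichment 17.7), XPC with LSM3 (17.3) and ATM; TDG is a thymine glycosylase and XPC the damage sensor of nucleotide excision repair. Of close head-to-head pairs with a repair gene, 26 of 26 had a shared summit, near the 92.3% of all close pairs. RNA polymerase subunits had the highest share of the lists, 17 of 33 (51.5%), led by POLR3K with SNRNP25 (16.2).

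Mitochondrial ribosomal proteins had a shared summit in 35 of 77 (45.5%). MRPL32 faced the proteasome gene PSMA2 across a summit of 17.98, and MRPL50 faced ZNF189 across one of 17.8. Aminoacyl-tRNA synthetases had 15 of 36 (41.7%); RARS2 faced the origin recognition gene ORC3 (18.6), and the cytosolic and mitochondrial histidyl enzymes HARS1 and HARS2 faced each other (16.3). Respiratory chain genes had 32 of 82 (39.0%), chaperones 26 of 79 (32.9%), DNA replication genes 14 of 44 (31.8%) and the proteasome 12 of 47 (25.5%). In the replication list PCNA with CDS2 had 15.9 and a pileup of 2635, and MCM2 with TPRA1 16.6. These lists all had shares above 19.4%, and all also had shares with any summit above 66.3%.

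Other lists were below the background share. Numbered zinc finger genes had a shared summit in 62 of 497 (12.5%), with ZNF891/ZNF10 the strongest (18.5). Collagen chains had 4 of 42 (9.52%): COL5A2 with WDR75 (12.2), COL4A1, COL4A2 and COL7A1 with UCN2 (5.76). None of 53 clustered protocadherins and none of 389 olfactory receptors had one, and 35.8% and 8.48% of them had any summit.

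**Figure D5:**
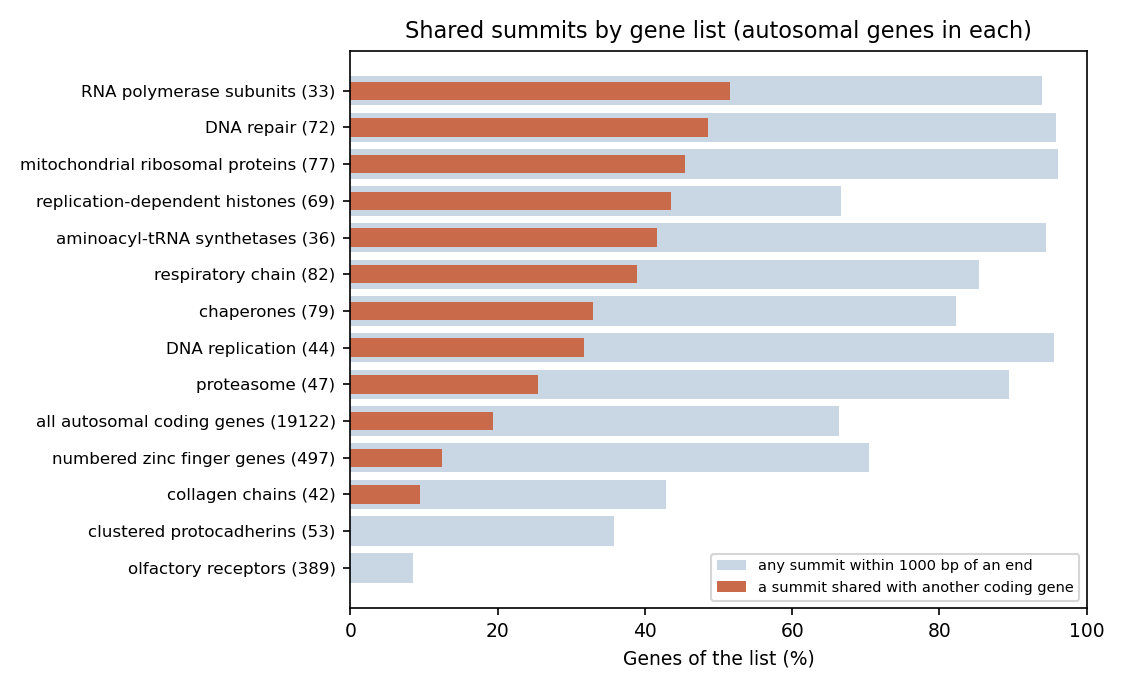
Share of the autosomal genes of each list with any summit within 1000 bp of an end (pale) and with a summit shared with another coding gene (red); list sizes are in brackets. RNA polymerase subunits (51.5%) and DNA repair genes (48.6%) have the largest shared shares, against 19.4% of all coding genes, while protocadherins and olfactory receptors have none.

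Replication-dependent histone genes, expressed in S phase, had shared summits of low enrichment. In their head-to-head pairs with a shared summit, the median pileup was not low. A shared summit was near 30 of 69 (43.5%), with a median of the highest enrichment per gene of 7.35 against 12.5 over all genes with a shared summit. Of 13 close head-to-head histone pairs, 8 had a shared summit, a lower share than the 92.3% of all 1048 close pairs. These 8 had enrichments of 6.61 to 11.5. Their median pileup was 1184, against 1238 at the strongest summit of all head-to-head pairs. H2AC15/H2BC15 had 11.5 and a pileup of 975, H2AC25/H2BC26 10.5 and 1384, H2BC11/H2AC11 10.1 and 1968, and H2BC13/H2AC13 8.81 and 985. H2BC4/H2AC6 had 8.15 and 1589, H2BC8/H2AC8 7.35 and 403, H2BC21/H2AC20 6.80 and 1832, and H2AC14/H2BC14 6.61 and 623. No summit lay at H2AC1/H2BC1, H2AC7/H2BC7, H3C4/H2BC7, H3C7/H2BC9 or H2AC17/H2BC17, of which H2AC7/H2BC7 and H3C4/H2BC7 have the same annotated starts and so are 1 place. Histone genes of 1 type are near-identical copies, so reads could be divided among them or dropped, and the part of this in their values was not tested.

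Close pairs without a shared summit were few. Of 81, 64 had no summit at either start and 17 had one at a single start. Overlapping starts made up 39 of the 81, and 10 pairs gained a shared summit when every listed start was used. Chromosome 19 held 18 of the 81 and chromosome 6 held 14, out of 76 and 75 close pairs there. Promoters of pairs without a shared summit were CpG-rich in 53.8% of 132. Pairs named here after their values were seen include DUOX2/DUOXA2 and DUOXA1/DUOX1 (an NADPH oxidase system of the thyroid), GABRA4/GABRB1 (subunits of a neuronal receptor), NLRP11/NLRP4, SPRR2G/LELP1 and EHMT2/C2. STAT5B/STAT5A, NAA38/CHD3, SBF2/ADM and PIK3R3/TSPAN1 also had no summit at either start. The pairs named were not chosen to represent the 81. EHMT2/C2 lies in the same complex on chromosome 6 as TAP1/PSMB9, so the same limit on reads applies to it.

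Genes of other lineages gave a check on the cells. FN1 had a summit near an end with an enrichment of 15.1, CD44 of 9.96 and VIM of 6.64, while CDH1 and PTPRC had none and EPCAM had 2.11. COL1A1 and COL1A2 had none, and KRT8, an epithelial keratin, had 3, the strongest at 12.7.

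At the edge of the rule, 80 members had their second nearest gene 951 to 1000 bp away, with a median enrichment of 5.64 and pileup of 448. Just outside, at 1001 to 1050 bp, 67 summits had 5.12 and 342. Within the rule, the median enrichment was 13.2 for a second gene within 99 bp, 13.9 at 100 to 249 bp, 10.9 at 250 to 499 bp, 8.71 at 500 to 749 bp and 5.67 at 750 to 1000 bp. The share of head-to-head summits also differed over these classes, from 62.4% within 99 bp and 63.8% at 100 to 249 bp to 27.4% at 750 to 1000 bp.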

How the data were processed

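ATAC-seq libraries of HT1080 cells (12, 4 per collagen concentration) were represented by 1 peak list that the authors deposited for the whole series. Per the submitters' processing notes, fastp 0.20.0, Bowtie2 2.4.3, SAMtools, deepTools 3.5.0 and MACS2 2.2.7.1 are named with hg38; their roles, settings, the treatment of duplicates and whether libraries were pooled before calling are not given in the sources used here. The deposited enrichment is a ratio (fold over local background), the deposited p-value and q-value are on the −log10 scale, and the deposited score was not used.

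Summits were placed at the deposited start plus the summit offset. Pileup was solved jointly with the background from enrichment = (pileup + 1)/(background + 1) and a Poisson p. It came out whole, within 0.05, for 99.97% of the 105599 summits (all but 29), and the lowest background was 20.3 fragments. This model and the assignment of genes were tested on simulated data. The CpG-rich limits, the order of classes, the lone-start set, the lncRNA partners, the printed sequences and shorter motif forms were chosen after values had been seen. Gene ends, types and promoters came from the RefSeq tables of GRCh38.p14; a promoter at the gene's outermost start was found for 13149 genes. A gene whose symbol joins 2 other symbols by a hyphen was treated as read-through (103 genes). The named pairs are the 8 strongest and 2 weakest head-to-head sets, the 3 strongest of each other class, the 5 summits near most genes, the 3 pairs with most summits, and the 20 textbook pairs, of which some are not reported here; lists show up to 4 strongest members. Members and lists were chosen with earlier results of these data known. Python 3.11.15, pandas 2.3.3, numpy 2.4.6 and scipy 1.17.1 were used.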

Additional observations from a re-analysis of the deposited data

Results flagged for a closer look

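Data outside the limits of the rule also held shared summits. On chromosome X, 57 summits in intervals of at most 10000 bp lay near an end of 2 or more coding genes, with a median enrichment of 12.7 against 10.8 at 383 summits near 1 gene. In autosomal intervals over 10000 bp there were 22, with a median of 7.97 against 6.65 at 169 summits near 1 gene.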

How the results depend on the processing

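Shared summits kept a higher median enrichment and pileup than summits near 1 gene under each of the 9 settings tried on all results, and 25 of 55 alternative values stayed within the counting interval of the reported value (or, for the number of summits, within 1.5 times). Below, each setting gives in this order the number of shared summits, their share of summits near coding genes, the enrichment difference, the pileup ratio, the head-to-head share and the share of close pairs, as far as they moved. A window of 500 bp gave 1404, 12.5%, 2.33, 1.74, 57.7% and 78.8%, and one of 2500 bp 3905, 19.7%, 2.42, 2.36, 31.3% and 94.7%. A −log10 q of at least 10 moved the share to 16.4%, the difference to 1.56, the ratio to 1.63 and the head-to-head share to 51.2%. The strongest summit of each interval gave a difference of 2.11 and a ratio of 1.79. Without read-through and LOC genes the share was 14.2% and the head-to-head share 51.1%. With gene starts only there were 1174, 11.7%, a ratio of 1.83 and a head-to-head share of 88.9%. Added after seeing the data, the strongest summit of each gene set gave 16.6%, 1.46 and 1.59, and every listed start gave 14.3%, 3.36 and 2.14. Removing the limit on interval length moved none of the 6. No paired analysis was possible because no column of the pooled list names a library, and leaving out replicates was not run for the same reason. Limits are that depth per library is unknown, that no replicate spread exists, that strand is missing for some genes, and that outermost gene ends can be rare starts.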

Other observations

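Shared summits were spread unevenly over chromosomes. They made up 20.5% of summits near coding genes on chromosome 16 and 19.4% on chromosome 17, and 8.81% on chromosome 18 and 9.22% on chromosome 4. The median enrichment of shared summits ranged from 9.74 on chromosome 19 to 14.3 on chromosome 4. Strand was given for no gene on chromosome 8, so its 68 shared summits entered no head-to-head count.

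Some gene sets shared several summits. FBXO8/CEP44, TRERF1/LOC124900214 and CIZ1/DNM1 each had 3 shared summits, the strongest of each at an enrichment of 8.64, 7.69 and 6.63. CIZ1 promotes the start of DNA replication and DNM1 is the neuronal dynamin. No summit lay near more than 4 coding genes. In 2 sets there were 4: MKKS, SLX4IP and 2 LOC genes that share the MKKS promoter letter for letter, with enrichments of 9.12 and 4.68, and 4 LOC genes near the end of chromosome 19, with 7.87 and 3.87. At 3 genes, the summit of TAOK2, LOC124903762 and TMEM219 on chromosome 16 was the strongest, with 18.95 and a pileup of 2724.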
